A study of Mus musculus with 16 samples.

Results

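Freshly collected hematopoietic stem cells (HSCs) labelled as Selp knockout were compared with wild-type HSCs in 5 of the 16 bulk RNA-seq libraries of the study. The libraries were chosen by their labels alone. They were 3 of genotype SelpWT (WT replicates 1 to 3) and 2 of genotype SelpKO (KO replicates 1 and 2), all of bone marrow HSCs from mice of 4 to 6 months, with no treatment after collection. The other libraries came from cultured cells; of these, 3 WT and 3 KO libraries of vehicle culture are used here as a second comparison of the genotypes that shares no library with the fresh one. The sources used here do not give the Selp allele, the strain of either genotype, the sorting gate or the number of mice behind a library. Replicates are therefore taken as separate samples only because they are listed so. The edgeR p-values rest on the spread between replicates over 15 libraries, cultured ones included, and that spread may be technical.

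Selp encodes P-selectin, a lectin of platelets and endothelial cells that is stored in granules, moves to the cell surface on activation and binds white cells through P-selectin glycoprotein ligand-1 (PSGL-1, gene Selplg). HSCs are the rare, mostly quiescent cells that sustain all blood lineages, and Selp is among the genes whose transcript is known to accumulate in HSCs of old mice together with other platelet-lineage genes. The comparison asks how the transcriptome of young adult HSCs differs when that gene is disrupted.

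The 5 libraries held 12590539 to 17561387 counts and 12150 to 13480 detected genes, so that 3 counts, the detection floor used here, corresponded to 0.171 to 0.238 CPM (counts scaled to the library's total). Levels are CPM, given as mean ± SD over 3 WT and 2 KO libraries. Markers of the labelled cell type were present to differing degrees. Kit (381 to 768 CPM) and Hlf (268 to 374 CPM) were present in all 5 libraries, while Hoxb5, Ctnnal1 and Fgd5 had 4.66, 4.88 and 11.3 CPM in WT replicate 1. Il7r, the receptor of lymphoid progenitors, had no count in any fresh library. Cd48, which marks more mature progenitors, had 0.143 to 9.57 CPM. Cd34 and Flt3, which are low in long-term HSCs, had 225 to 408 and 28.8 to 60.4 CPM. Cd34 was thus at a level like that of Hlf, and not low. The KO libraries differed more from each other than the WT libraries did. The correlation of log2 CPM across genes was 0.888 between them and 0.912 to 0.918 between WT libraries (across genes, which are not independent replicates), and KO replicate 1 had 9.22% of its counts on cytosolic ribosomal protein genes against 4.53% in KO replicate 2 and 4.66 to 6.39% in WT.

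The targeted gene was low in both libraries labelled KO. Selp (chromosome 1, 164115264 to 164150026 in mm10) had 16.8, 67.3 and 119 CPM in WT replicates 1, 2 and 3, and 0 and 2.34 CPM in KO replicates 1 and 2. Both KO libraries lay below every WT library, while the WT libraries themselves spanned a wide range. The log2 fold change of KO over WT was -5.86 (standard error 1.74), with an unadjusted p of 0.00406 and an adjusted p of 0.905 by edgeR's quasi-likelihood test over all genes. Selp therefore did not pass the threshold over all genes. The table gives 1 count per gene, so the reads left in KO replicate 2 could not be placed within the gene. In vehicle culture Selp was at 75.2 ± 58.0 CPM in WT and 7.51 ± 4.25 CPM in KO, a log2 fold change of -3.36.

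Selplg, the gene of the ligand PSGL-1, had 238, 232 and 318 CPM in the WT libraries and 388 and 268 CPM in the KO libraries. These ranges overlapped, and the log2 fold change was 0.37 (standard error 0.28, unadjusted p = 0.199 by edgeR). Of 33 tested genes for selectins, their ligands and the enzymes that glycosylate them, none passed the threshold by edgeR or DESeq2; 5 lay above and 5 below all WT libraries in both KO libraries, 15.2% each, where 8.59% and 9.37% of all tested genes did. Among them Fuca1, the lysosomal fucosidase, had 118 to 143 CPM in WT and 220 and 181 CPM in KO (log2 fold change 0.66, edgeR unadjusted p = 0.0228).

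**Figure D1:**
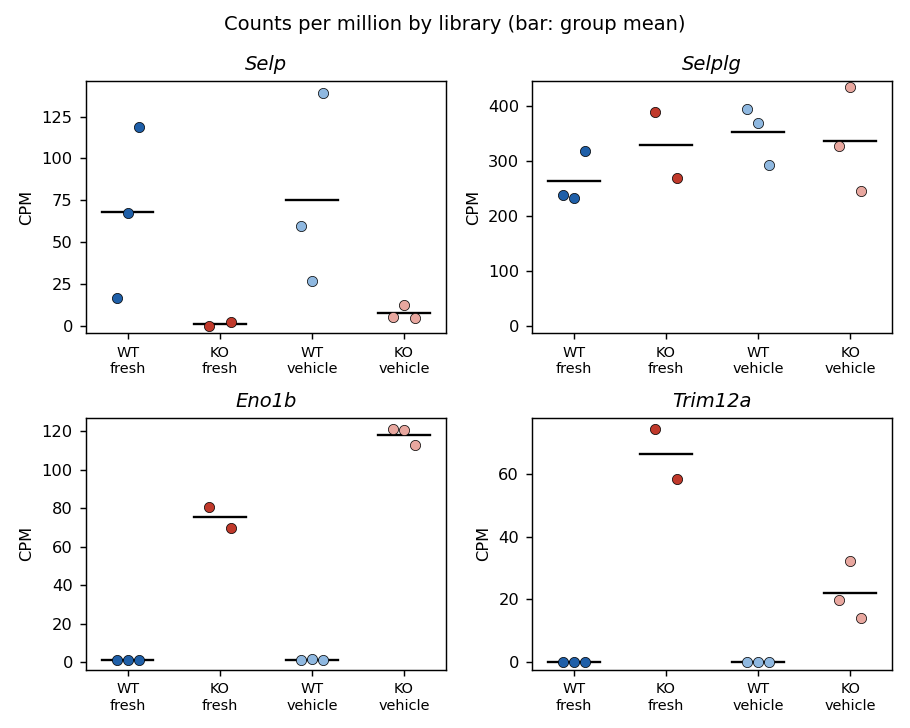
CPM (linear axes) of Selp, Selplg, Eno1b and Trim12a in each fresh and vehicle library of WT and KO; points are libraries and bars group means. Selp sits lower in both fresh KO libraries than in any WT library, Selplg overlaps, and Eno1b and Trim12a are separated by genotype in fresh and in cultured cells.

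The genes beside the disrupted locus were examined next. Within 10 Mb of Selp, 162 of 254 genes were tested. None passed the threshold by edgeR, and DESeq2 called 1, Ifi204. In both KO libraries 21 (13%) lay above and 13 (8.02%) below all WT libraries, against 8.59% and 9.37% of all tested genes, and the median log2 fold change was 0.03 against 0 over all genes. Ifi204, an interferon-inducible gene of the HIN-200 family, had no count in any WT library, fresh or vehicle, and 11.2 and 8.71 CPM in the fresh KO libraries, at least 134-fold higher than the floor of 3 counts over the WT group (edgeR unadjusted p = 0.00244, adjusted p = 0.82). Its reads can be shared with similar genes of that family. Ifi202b and Ifi211 near it, named after their values were seen, also had no count in fresh WT libraries. In the fresh KO libraries Ifi202b had 7.23 and 3.86 CPM and Ifi211 1.14 and 1.29 CPM. Ifi203 and Mndal nearby overlapped between genotypes, and Ifi213 had counts only in fresh WT libraries. Gas5, a host transcript of small nucleolar RNAs, had 349, 334 and 301 CPM in WT and 196 and 140 CPM in KO, a log2 fold change of -0.92 in fresh cells and -1.60 in vehicle culture (edgeR adjusted p = 0.938 and 0.0537). Cep350, a centrosomal protein gene, had 65.1 to 97.8 CPM in WT and 18.5 and 40.3 CPM in KO.

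**Figure D2:**
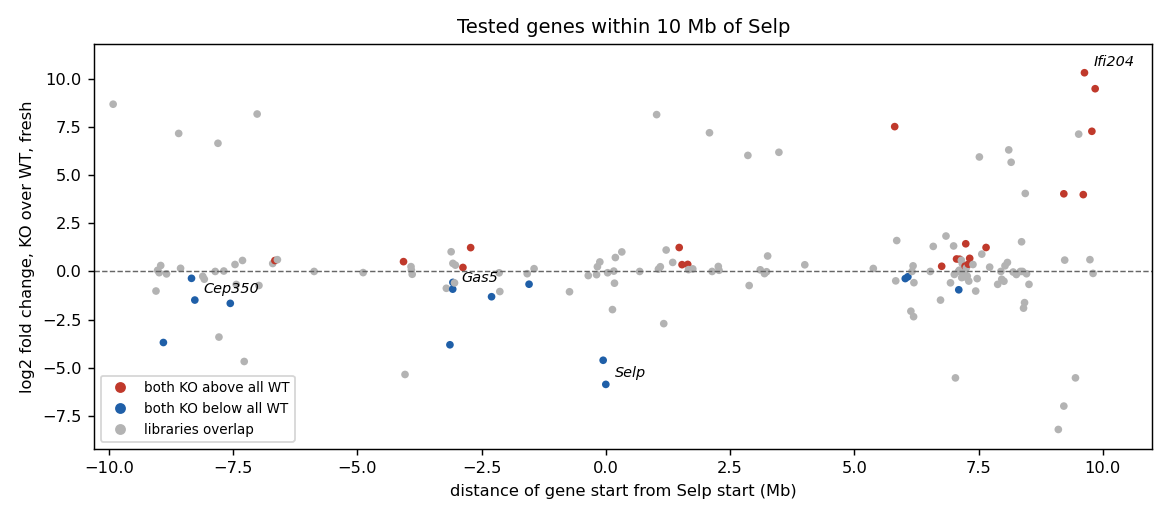
Log2 fold change of KO over WT in fresh HSCs for tested genes within 10 Mb of Selp, against the distance of each gene's start from that of Selp; colour marks genes whose KO libraries lie above or below all WT libraries. Selp stands at the centre well below 0, and the other genes scatter on both sides of 0 along the whole window.

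Over all 15095 tested genes, 3 passed an adjusted p of 0.05 (0.0199%): Eno1b and Trim12a were higher in KO (0.0132%) and 1 gene was lower (0.00662%). An unadjusted p under 0.05 was reached by 674 genes (4.47%), 288 of them higher (1.91%) and 386 lower (2.56%). That share is no larger than the threshold of 0.05 would let through with no difference between genotypes. The count depended on 1 library and on the test. Without KO replicate 2, 288 genes passed, 42 higher and 246 lower, with the remaining KO library taken to vary like the other groups; without KO replicate 1, 2 passed, Eno1b and Trim12a. DESeq2 called 128 of 14021 genes (0.913%), 43 higher (0.307%) and 85 lower (0.606%), but in 47 of these the KO and WT libraries overlapped and 35 had counts in only 1 fresh library. Of the 128, 29 higher and 45 lower genes had no overlap and reached 5 CPM in the mean of either group.

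Eno1b is a retrotransposed copy of the glycolytic enzyme gene Eno1 (chromosome 18, 48045335 to 48048379). It had 1.46, 1.43 and 1.36 CPM in the WT libraries and 80.7 and 69.8 CPM in the KO libraries. KO exceeded WT 54.4-fold (log2 fold change 5.77, standard error 0.37, edgeR adjusted p = 3.21e-07), a difference far beyond the spread in either group. In vehicle culture the gene was at 1.40 ± 0.316 CPM in WT and 118 ± 4.55 CPM in KO (edgeR adjusted p = 6.14e-08). Because Eno1b and Eno1 are near-identical, reads may have been split between them. Eno1 itself had 1068, 1074 and 1190 CPM in WT and 829 and 887 CPM in KO (log2 fold change -0.34, edgeR unadjusted p = 0.0646).

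Trim12a belongs to the Trim5-like family of antiviral restriction genes (chromosome 7, 104299893 to 104315558). It had 1 count in total in the WT libraries, in replicate 3, and 74.1 and 58.2 CPM in the KO libraries. From the 1 and 2297 counts of the genotypes, the ratio of KO to WT was 2670, with a 95% counting interval of 479 to 105486 (edgeR adjusted p = 0.00139). With all 16 libraries in the edgeR fit its adjusted p was 0.0935, which did not pass. With limma voom on the fresh libraries alone neither Eno1b nor Trim12a passed (adjusted p = 0.982 for both, with log2 fold changes of 5.73 and 10.33), an alternative chosen after seeing the data. Vehicle cultures repeated the separation, with no count in WT and 22.1 ± 9.28 CPM in KO (edgeR adjusted p = 0.00204). The neighbouring copy Trim12c had 62.7, 59.8 and 66.9 CPM in WT and 13.8 and 49.2 CPM in KO. Trim5, named after its values were seen, had at most 0.146 CPM in WT and 9.11 and 4.21 CPM in KO. Counts of these copies are uncertain, since the sources used here do not say how multi-mapped reads were counted.

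The order of the differences is given by the 12 genes in each direction with the smallest unadjusted p, no overlap between genotypes and a group mean of 5 CPM or more, which include the genes that passed. Among the higher genes that did not pass by edgeR, Clu, the secreted chaperone clusterin, had the smallest p. It had 30.8, 40.6 and 52.8 CPM in WT and 130 and 230 CPM in KO (log2 fold change 2.14, standard error 0.36, edgeR adjusted p = 0.0655), and in vehicle culture 84.5 ± 32.5 against 278 ± 76.3 CPM. Efna1, the Eph receptor ligand ephrin-A1, had 3.35, 11.7 and 15.8 CPM in WT and 91.8 and 74.7 CPM in KO. Shb, an adaptor of receptor tyrosine kinases, had 4.84 to 5.44 CPM in WT and 47.7 and 26.5 CPM in KO, but overlapped after culture. Hs3st1, a heparan sulfate sulfotransferase, had no count in WT and 10.5 and 14.3 CPM in KO, at least 166-fold above the floor of 3 counts over the WT group, while vehicle cultures of both genotypes expressed it and overlapped. Trim47, a ubiquitin ligase, and Tsc22d1, a leucine zipper factor, were 2.21-fold and 2.19-fold higher in KO. Def8 had 76.6 to 138 CPM in WT and 171 and 747 CPM in KO, so its 4.65-fold mean difference came mostly from KO replicate 2. The set was completed by Rbms2, Tmem59 and Aopep, at 1.66-fold to 2.89-fold.

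On the lower side, Fancm, the DNA translocase of the Fanconi anemia pathway, had 35.9, 20.5 and 29.3 CPM in WT and 3.30 and 1.64 CPM in KO (log2 fold change -3.47, standard error 0.66, edgeR adjusted p = 0.21). Pole, the catalytic subunit of DNA polymerase epsilon, had 62.3, 40.2 and 54.5 CPM in WT and 1.99 and 14.5 CPM in KO. Plk4, the kinase that starts centriole duplication, had 43.9 to 63.4 CPM in WT and 5.18 and 19.5 CPM in KO. The fitted means of these 3 genes were 11.1-fold, 6.39-fold and 4.16-fold lower in KO. Top2a and Tyms are given with the cell cycle lists. Rrp12, a ribosome maturation factor, had 80.7, 76.0 and 79.7 CPM in WT and 27.7 and 26.3 CPM in KO, with little spread in either group. Aars, the alanyl-tRNA synthetase, and Runx3, a transcription factor of the RUNX family, were 2.41-fold and 2.57-fold lower in KO. Mtmr9 had 122 to 138 CPM in WT and 26.0 and 55.7 CPM in KO, and Emilin2, a matrix glycoprotein, 14.2 to 57.4 against 9.85 and 3.74 CPM. Fdps is taken up with the cholesterol genes.

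**Figure D3:**
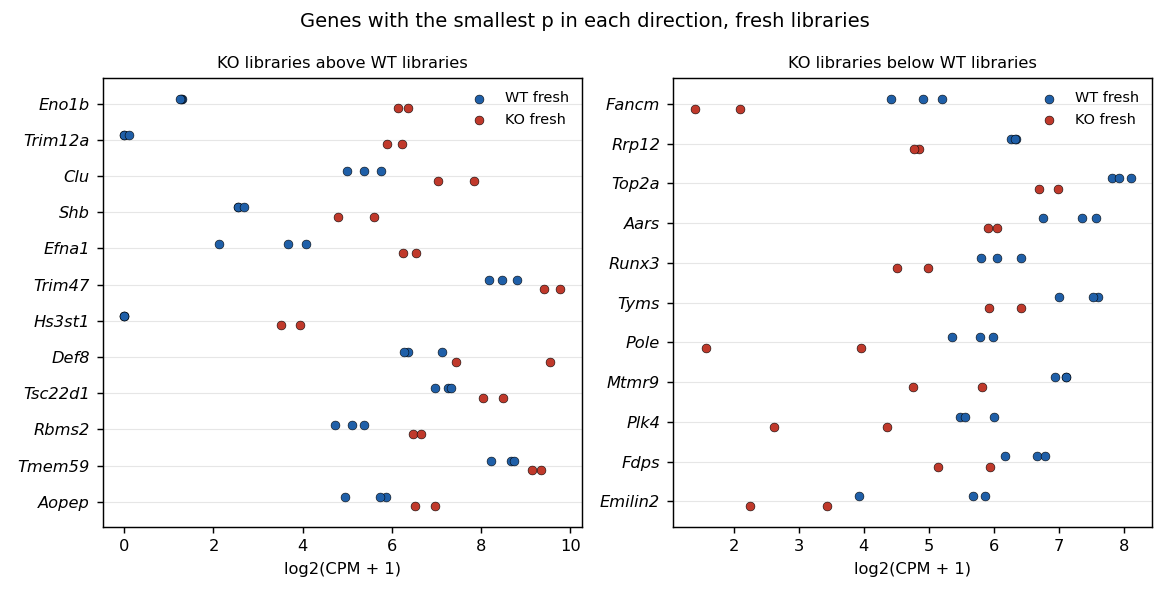
Log2 of CPM + 1 in each fresh library of genes in each direction with the smallest unadjusted p; points are libraries, blue for WT and red for KO. In every gene both KO points lie on one side of the 3 WT points, which the choice of genes fixes, and the gap is widest for Trim12a and Eno1b.

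Genes of DNA synthesis and of chromosome segregation lay below all WT libraries in both KO libraries in a larger share than all tested genes did. Proliferating cells switch these genes on in turn: replication genes in S phase through E2F factors, and mitotic genes later through complexes that read CHR and CCAAT elements. No member passed the threshold over all genes by edgeR. DESeq2 called 3 replication genes (Tyms, Pole and Rfc4) and 5 mitosis genes (Top2a, Spc24, Kif11, Cenpe and Mki67), all lower. Of 50 replication and S phase genes, 45 had a log2 fold change below 0 and 5 above it, with a median of -0.48, where 49% of all genes lay below 0. In 15 of them (30%) both KO libraries lay below all WT libraries and in none above, against 9.37% and 8.59% of all genes. Of 54 mitosis genes, 45 lay below 0 and 9 above, with a median of -0.53, and 23 (42.6%) had both KO libraries below all WT libraries and none above. An unadjusted p under 0.05 was reached by 17 and 20 of them, all lower, against 2.56% of all genes. The medians without KO replicate 1 were -0.36 and -0.57, and without KO replicate 2 they were -0.66 and -1.08.

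The summed level of the mitosis list was 4055 to 4740 CPM in the 3 WT libraries and 2761 and 3232 CPM in the KO libraries, which did not overlap. For the S phase list the sums were 6167 to 8033 CPM in WT and 4036 and 6092 CPM in KO, a narrow separation. In bulk libraries fewer cycling cells and less of these transcripts per cell cannot be told apart. Top2a, the topoisomerase that untangles replicated DNA, had 224, 275 and 243 CPM in WT and 103 and 127 CPM in KO (log2 fold change -1.08, standard error 0.22, edgeR adjusted p = 0.285). Kif11, the kinesin that pushes spindle poles apart, had 40.2, 89.0 and 76.7 CPM in WT and 17.4 and 29.9 CPM in KO (log2 fold change -1.51, standard error 0.38). Spc24, a kinetochore subunit, had 132, 88.6 and 66.7 CPM in WT and 39.9 and 47.9 CPM in KO. All 3 were separated by genotype. Tyms, which makes thymidylate, had 194, 128 and 184 CPM in WT and 59.8 and 85.0 CPM in KO (log2 fold change -1.19, standard error 0.27). Rfc4, a subunit of the loader of the replication clamp, had 91.3, 60.8 and 70.1 CPM in WT and 32.2 and 39.7 CPM in KO (log2 fold change -1.02, standard error 0.30).

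In vehicle culture the list medians were 0.04 for S phase and 0.03 for mitosis genes, and the sums of both genotypes were higher than in fresh cells (mitosis 8383 ± 1098 CPM in WT and 8803 ± 976 CPM in KO). Kif11 lay above all WT libraries in the KO vehicle cultures, as 5.4% of all genes did, while 3.48% lay below. The median difference between the fresh and the vehicle genotype effect was -0.61 and -0.55, with 46 of 50 and 47 of 54 genes below 0. Over all 15095 tested genes the median was -0.06, with 7982 below 0 and 6972 above. None passed the adjusted threshold.

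Promoters of 3 of these genes are shown because their lists carry different elements. Each is the RefSeq sequence of GRCm38.p6 from 250 bases before to 50 bases after the start, 5′ to 3′ on the strand of the gene, with capitals for matches on either strand to the CHR letters TTTGAA, the CCAAT box CCAAT and the E2F letters GCGGGAA.
Top2a (chr11:99024140-99024439, minus strand): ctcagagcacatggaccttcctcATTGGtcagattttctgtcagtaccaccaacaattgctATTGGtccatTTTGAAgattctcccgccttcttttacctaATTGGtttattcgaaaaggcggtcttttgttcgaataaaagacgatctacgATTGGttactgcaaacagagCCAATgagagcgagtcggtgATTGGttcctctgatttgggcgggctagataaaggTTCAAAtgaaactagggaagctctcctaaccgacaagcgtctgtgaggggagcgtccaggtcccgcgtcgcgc
Kif11 (chr19:37376132-37376431, plus strand): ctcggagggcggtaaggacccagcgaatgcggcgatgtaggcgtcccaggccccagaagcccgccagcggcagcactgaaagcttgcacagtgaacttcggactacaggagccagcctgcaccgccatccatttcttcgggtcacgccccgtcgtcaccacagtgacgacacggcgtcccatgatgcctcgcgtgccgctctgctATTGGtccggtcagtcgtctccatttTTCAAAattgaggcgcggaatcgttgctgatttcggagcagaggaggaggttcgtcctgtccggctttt
Rfc4 (chr16:23127681-23127980, minus strand): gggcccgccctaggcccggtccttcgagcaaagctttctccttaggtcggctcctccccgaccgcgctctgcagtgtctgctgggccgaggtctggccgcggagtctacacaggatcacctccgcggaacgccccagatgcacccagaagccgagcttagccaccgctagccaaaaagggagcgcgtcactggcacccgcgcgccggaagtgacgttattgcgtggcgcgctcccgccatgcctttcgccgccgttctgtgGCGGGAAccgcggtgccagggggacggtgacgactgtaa
Top2a held 2 CHR and 6 CCAAT matches, Kif11 1 of each and Rfc4 1 E2F match. The CHR letters occurred in 35 of 46 promoters of mitosis genes (76.1%), in 6 of 49 promoters of S phase genes (12.2%) and in 17.9% of all 32851 promoters of the same length. The E2F letters occurred in 17 of the 49 S phase promoters (34.7%), in 2.17% of the mitosis promoters and in 4.6% of all. CCAAT was present in 73.9% of mitosis, 57.1% of S phase and 37.4% of all promoters. Promoter entries were found for 44 of the 54 mitosis and 41 of the 50 S phase genes, some with several starts. A match is a description of letters and does not show binding.

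G1 regulators were less uniform. Of 21 tested cyclins, cyclin-dependent kinases (CDKs) and CDK inhibitors, 11 lay below 0 and 9 above, with a median of -0.09. Cdk6, the kinase that works with D-type cyclins in leaving quiescence, had 260, 212 and 397 CPM in WT and 126 and 165 CPM in KO (log2 fold change -0.97, edgeR unadjusted p = 0.00198), and its vehicle values were also separated, 617 ± 47.0 against 408 ± 70.0 CPM. Cdk2 had 141 to 197 CPM in WT and 82.5 and 121 CPM in KO. Cdkn1c, the CDK inhibitor p57 that marks quiescent HSCs, had 34.5, 99.7 and 54.8 CPM in WT and 152 and 107 CPM in KO, without overlap (log2 fold change 1.09, edgeR unadjusted p = 0.0551). No member passed the threshold by edgeR, and DESeq2 called Cdk6 lower. The list median was -0.01 without WT replicate 2 and -0.33 without WT replicate 3.

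**Figure D4:**
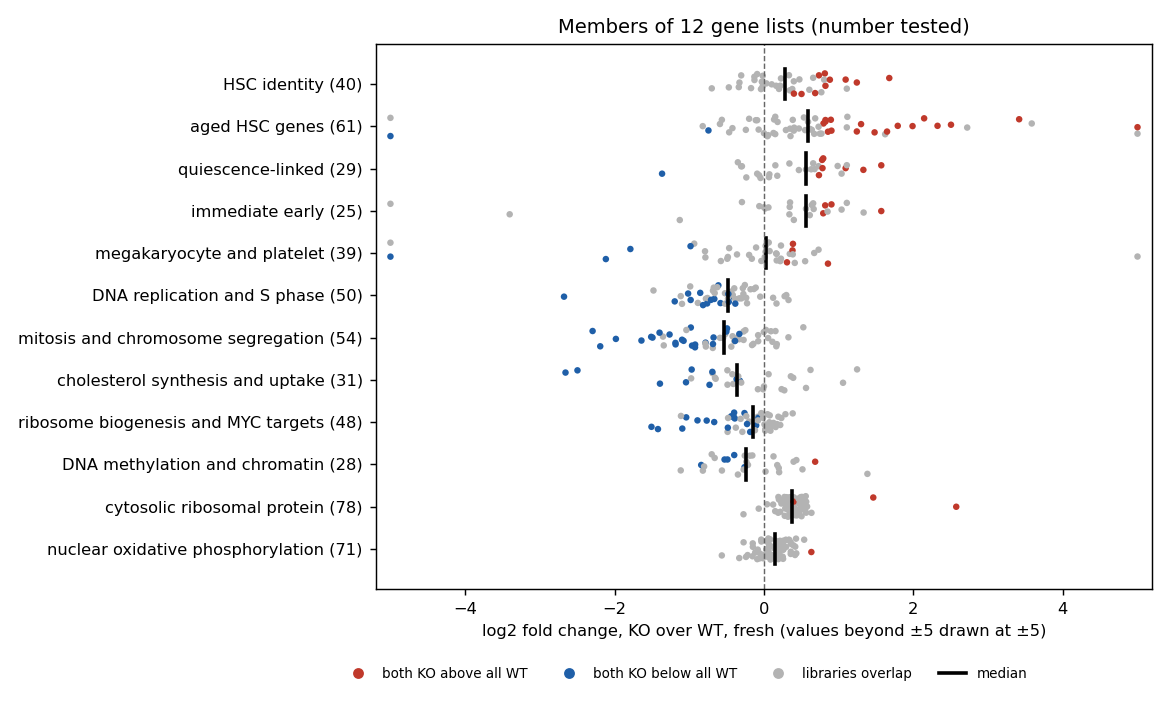
Log2 fold change of KO over WT in fresh HSCs for each tested member of 12 gene lists; points are genes, coloured where both KO libraries lie above or below all WT libraries, and bars are list medians. S phase and mitosis genes lie mostly left of 0 with medians of -0.48 and -0.53, aged HSC genes mostly right with a median of 0.59, and ribosomal protein genes form a narrow cloud at 0.38.

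Most cholesterol genes had a log2 fold change below 0 in fresh KO cells. The pathway builds cholesterol from acetyl-CoA through mevalonate, farnesyl diphosphate and lanosterol, under control of the transcription factor SREBP2. Of 31 tested genes, 21 had a log2 fold change below 0 and 9 above, with a median of -0.37 (vehicle 0.01); both KO libraries lay below all WT libraries in 9 (29%) and above in none, against 9.37% and 8.59% of all genes. DESeq2 called 3 members, all lower, Fdps and Tm7sf2 among them. Srebf2, which encodes SREBP2, had 384, 368 and 400 CPM in WT and 167 and 290 CPM in KO (log2 fold change -0.73, edgeR unadjusted p = 0.00525). Fdps, the farnesyl diphosphate synthase, had 101, 71.0 and 109 CPM in WT and 34.2 and 60.5 CPM in KO. Fdft1, the squalene synthase of the next step, was named after its values were seen. It had 26.5, 54.0 and 20.6 CPM in WT and 85.7 and 48.8 CPM in KO. Its mean went the other way, but only KO replicate 1 lay outside the WT range. Without KO replicate 1 the list median was -0.16.

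Among 48 genes of ribosome biogenesis and MYC targets, 31 lay below 0 and 17 above. Their median was -0.15, both KO libraries lay below all WT libraries in 17 (35.4%) and above in none, against 9.37% and 8.59% of all genes. No member passed the threshold by edgeR, and DESeq2 called Rrp12 lower. Besides Rrp12, these included Cad, the enzyme that opens pyrimidine synthesis, with 98.3 to 234 CPM in WT and 67.0 and 85.5 CPM in KO, and Utp20 of the small-subunit processome, with 34.5 to 64.1 against 28.4 and 16.3 CPM. The 33 genes of the unfolded protein and integrated stress responses were divided, 14 above and 18 below 0, and DESeq2 called Aars and Hyou1 lower. Hyou1, a chaperone of the endoplasmic reticulum, had 14.6, 62.0 and 93.3 CPM in WT and 1.42 and 12.1 CPM in KO. Gars, the glycyl-tRNA synthetase, lay above all WT libraries (133 to 187 CPM in WT, 221 and 208 CPM in KO), the opposite of Aars.

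Genes that define HSCs were present in both genotypes, and none of 40 tested members passed the threshold by edgeR or DESeq2. Of the 40, 26 lay above 0 and 14 below, with a median of 0.28 (vehicle 0.17), and both KO libraries lay above all WT libraries in 10 (25%) and below in none, against 8.59% and 9.37% of all genes. The median was 0.11 without WT replicate 1 and 0.46 without WT replicate 3. Slamf1, the CD150 marker used to isolate HSCs, had 51.4, 41.3 and 36.1 CPM in WT and 105 and 92.7 CPM in KO. Slamf1 starts 7652 kb from Selp, so it is also among the genes within 10 Mb of the disrupted locus. In vehicle culture it was at 1.78 ± 3.08 CPM in WT and 19.4 ± 8.97 CPM in KO, without overlap. Procr, the endothelial protein C receptor, had 73.7, 99.4 and 75.0 CPM in WT and 164 and 131 CPM in KO. Both markers were separated by genotype in fresh cells, yet their unadjusted p values by edgeR were 0.335 and 0.0962. Procr overlapped in vehicle culture. Fgd5, another HSC marker, had 11.3, 55.8 and 5.94 CPM in fresh WT and 65.7 and 85.2 CPM in fresh KO. In vehicle culture Fgd5 was lower in KO without overlap, at 41.3 ± 38.6 CPM in WT and 10.6 ± 3.66 CPM in KO. Ly6a, which encodes Sca-1, had 92.5, 109 and 134 CPM in WT and 234 and 133 CPM in KO, so that KO replicate 2 overlapped WT (edgeR unadjusted p = 0.00493). In vehicle culture Ly6a was at 471 ± 29.5 CPM in WT and 778 ± 74.4 CPM in KO, without overlap. Mecom, a transcription factor of HSC self-renewal, had 78.6 to 119 CPM in WT and 37.8 and 90.2 CPM in KO, and overlapped.

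Transcripts known from HSCs of old animals had higher values in KO for most of the list, though none of the 61 tested members passed the threshold by edgeR and DESeq2 called 1, Clu. A log2 fold change above 0 was found for 47 and below 0 for 13, with a median of 0.59 (vehicle 0.29), and both KO libraries lay above all WT libraries in 17 (27.9%) and below in 2, against 8.59% and 9.37% of all genes. The median was 0.84 without KO replicate 1 and 0.06 without KO replicate 2, so the size of the shift came from KO replicate 2. Besides Clu, Prcp, a lysosomal carboxypeptidase, had 28.1, 32.8 and 17.5 CPM in WT and 75.5 and 102 CPM in KO (log2 fold change 1.79, edgeR unadjusted p = 0.00291). Ier2, an immediate early gene, had 233, 321 and 447 CPM in WT and 632 and 581 CPM in KO. Aldh1a1, the retinaldehyde dehydrogenase, and Ptprk, a receptor phosphatase, both named after their values were seen, had 61.6 to 76.6 against 84.7 and 242 CPM, and 3.01 to 10.9 against 38.4 and 15.6 CPM. Selp itself is a member and was the one with the opposite sign at an unadjusted p under 0.05.

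Megakaryocyte and platelet genes, the lineage that Selp belongs to, had a median near 0: 22 of 39 tested members lay above 0 and 17 below, the median was 0.02, and 4 members were separated in each direction (10.3%), close to the 8.59% above and 9.37% below of all genes. Vwf, the von Willebrand factor, had 111, 209 and 254 CPM in WT and 247 and 375 CPM in KO, overlapping in fresh cells (log2 fold change 0.73), and 58.2 ± 13.1 against 148 ± 52.2 CPM in vehicle culture without overlap. Mmrn1, multimerin 1, had 206, 291 and 242 CPM in WT and 220 and 558 CPM in KO. Its log2 fold change of 0.67 became -0.034 without KO replicate 2.

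Most quiescence-linked and immediate early genes had a log2 fold change above 0, with no member past the threshold by edgeR or DESeq2. Lists can share members, so their counts are not separate results: Mycn was also on the HSC identity list and Ier2 on the aged HSC list. Of 29 quiescence-linked genes, 21 lay above 0 and 8 below, with a median of 0.56 (vehicle -0.0010); both KO libraries lay above all WT libraries in 7 (24.1%) and below in 1, against 8.59% and 9.37% of all genes. Without KO replicate 2 the median was 0.34. Mycn, a MYC family factor, had 227, 439 and 460 CPM in WT and 567 and 651 CPM in KO. Hes1, a target of Notch signalling, was the member below all WT libraries, with 4.22 to 6.51 CPM in WT and 2.28 and 1.99 CPM in KO. Of 25 immediate early genes, which cells switch on within minutes of a stimulus, 19 lay above 0 and 5 below, with a median of 0.56 (vehicle 0.06; without WT replicate 1, 0.19; without KO replicate 2, 0.34). Junb, a subunit of AP-1, had 74.0, 134 and 228 CPM in WT and 245 and 255 CPM in KO. WT replicate 1 was the lowest library for Junb and Ier2, and the summed level of the list was 1834 CPM there, 3158 and 4260 CPM in the other WT libraries and 4232 and 4469 CPM in KO.

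Ribosomal protein genes divided the KO libraries rather than the genotypes. Of 78 tested cytosolic ribosomal protein genes 76 lay above 0, at a median of 0.38, but both KO libraries exceeded all WT libraries in only 3 (3.85%), where 8.59% of all genes did. Their sum was 92246 CPM in KO replicate 1 and 45305 CPM in KO replicate 2, against 46602 to 63896 CPM in WT. The median was 0.91 with KO replicate 1 alone and -0.32 with KO replicate 2 alone. Rpl13 illustrates this, with 3332, 2709 and 2489 CPM in WT and 5374 and 2680 CPM in KO; its log2 fold change of 0.56 became -0.11 without KO replicate 1. Nuclear genes of oxidative phosphorylation did the same, with a median of 0.14 over 71 genes, 0.53 with KO replicate 1 alone and -0.33 with KO replicate 2 alone. Rpl29 departed from its family, with 16.7 to 24.1 CPM in WT, 28.7 CPM in KO replicate 1 and 209 CPM in KO replicate 2, and its vehicle means were 27.5 ± 2.09 CPM in WT and 206 ± 162 CPM in KO. Ribosomal protein genes have many processed copies, so their counts are uncertain.

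**Figure D5:**
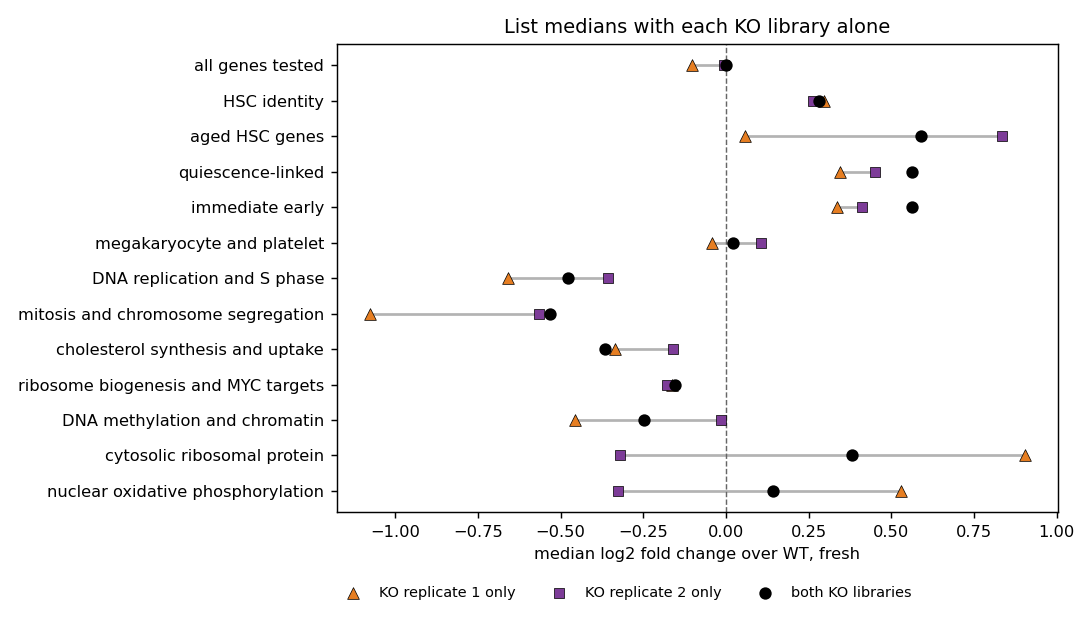
Median log2 fold change of gene lists in fresh HSCs from both KO libraries (circles), from KO replicate 1 alone (triangles) and from KO replicate 2 alone (squares), each over the WT libraries. The replication, mitosis and cholesterol lists stay below 0 with either library, HSC identity, quiescence-linked and immediate early lists stay above 0, and the ribosomal protein and oxidative phosphorylation lists change sign.

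Immune and signalling lists had medians near 0 and no member past the threshold by edgeR or DESeq2. The median was -0.01 over 48 interferon-stimulated genes, -0.12 over 22 genes of MHC class I presentation, 0.02 over 37 cytokine receptor and JAK-STAT genes, 0.04 over 40 integrin and homing genes and 0.07 over 29 genes of the TGF-beta pathway, and several of these crossed 0 under other settings or with a library left out. Ifitm1, an interferon-induced membrane protein, had 734, 921 and 673 CPM in WT and 2053 and 914 CPM in KO, so that only KO replicate 1 lay outside the WT range. Tap2, a subunit of the peptide transporter that loads MHC class I, had 644, 519 and 522 CPM in WT and 281 and 354 CPM in KO (log2 fold change -0.79, edgeR unadjusted p = 0.00576), and 251 ± 62.3 against 261 ± 26.1 CPM in vehicle culture. Tgfbi, a matrix protein induced by TGF-beta, had 18.7, 33.8 and 18 CPM in WT and 35.0 and 41.7 CPM in KO, and it was separated in vehicle culture too, at 384 ± 83.1 against 566 ± 53.9 CPM.

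Other lists without a changed member by edgeR had medians of 0.19 over 32 genes of NF-kappaB and inflammation, 0.21 over 37 genes of NRF2 and glutathione defence, 0.30 over 22 Hox, Meis and Pbx genes, 0 over 27 p53 targets and -0.09 over 23 chaperones. DESeq2 called 1 gene of these lists, Nnt of the NRF2 list, lower. The medians moved with single libraries: that of the NF-kappaB list was 0.0014 without KO replicate 2, that of the NRF2 list -0.0010 without KO replicate 1, and that of the Hox list 0.08 without WT replicate 1. For the p53 list it was 0.23 without WT replicate 3, and for the chaperones 0.05 without KO replicate 2. Eno1b was the changed member among 24 glycolysis genes, whose median was 0.08. Hk1, the hexokinase that starts glycolysis, had 511, 584 and 512 CPM in WT and 177 and 485 CPM in KO, and Slc2a1, the glucose transporter GLUT1, had 43.9, 76.7 and 28.9 CPM in WT and 172 and 61.3 CPM in KO. In both genes KO replicate 1 stood far from WT and KO replicate 2 close to it. Ikzf1, which encodes the lymphoid factor Ikaros, had 78.8, 97.4 and 96.8 CPM in WT and 40.4 and 62.3 CPM in KO, below all WT libraries (log2 fold change -0.80, edgeR unadjusted p = 0.0213). Of the 12 tested lymphoid priming genes, 7 lay below 0 and 5 above.

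The DNA methyltransferases, of which Dnmt3a restrains HSC self-renewal, had lower KO values without passing the threshold by edgeR or DESeq2. Dnmt3a had 115, 189 and 182 CPM in WT and 64.3 and 116 CPM in KO, and overlapped. Dnmt3b had 163, 202 and 242 CPM in WT and 103 and 118 CPM in KO, and did not overlap. Dnmt1, which copies methylation at replication, had 460, 264 and 419 CPM in WT and 189 and 287 CPM in KO, and overlapped. Over 28 genes of DNA methylation and chromatin the median was -0.25, with -0.01 without KO replicate 1 and -0.46 without KO replicate 2.

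Eno1b and Trim12a were also on a list of 16 tested genes put together as candidates for strain differences, with earlier results of these data known, so that its count of 2 changed genes is no independent evidence. Nnt, the mitochondrial transhydrogenase that carries a deletion in C57BL/6J mice, had 122, 144 and 174 CPM in WT and 18.8 and 71.1 CPM in KO (log2 fold change -1.70, edgeR unadjusted p = 0.00156), and 129 ± 32.4 against 70.4 ± 18.6 CPM in vehicle culture. Wdfy1, an endosomal adaptor of Toll-like receptors, had 176, 118 and 126 CPM in WT and 41.4 and 52.7 CPM in KO, with a vehicle log2 fold change of -2.17. Nnt and Wdfy1 were separated by genotype in fresh and in cultured libraries, and neither passed the threshold by edgeR, while DESeq2 called Nnt lower. The part of strain background in these differences was not tested.

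Markers of other cell types were summed in each library. Granulocyte and monocyte markers, 22 genes of which only Ly6g had no count, came to 965 to 1086 CPM in WT and 1429 and 1532 CPM in KO. Lyz2, lysozyme, had 503, 430 and 428 CPM in WT and 643 and 610 CPM in KO, and Mpo, myeloperoxidase, had 26.5 to 78.7 CPM in WT, 0 in KO replicate 1 and 231 CPM in KO replicate 2. Endothelial and stromal markers came to 556 to 763 CPM in WT and 918 and 1094 CPM in KO, with 7 of 21 genes, Cdh5 and Flt1 among them, at 0 in all 5 libraries. Within that list Cldn5, a tight junction gene, had no count in WT and 19.2 and 10.2 CPM in KO, at least 199-fold above the floor of 3 counts over the WT group, and Tie1 had 252 to 282 against 402 and 364 CPM. Erythroid markers spanned 3366 to 4004 CPM in WT and 4311 and 2655 CPM in KO, with the globin genes and Alas2 among 6 genes at 0. T and NK cell markers came to 75.6 to 138 CPM in WT and 58.1 and 53.7 CPM in KO, with 10 of 14 listed in the table at 0, among them Cd3d, Cd3e and Cd3g. B and plasma cell markers came to 41.3 to 57.6 CPM in WT and 67.4 and 48.7 CPM in KO. The part of other cells in the differences above was not tested.

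In the vehicle comparison, whose libraries may or may not come from the same mice, 2 genes passed the threshold (0.0132%), Eno1b and Trim12a, both higher in KO as in fresh cells. An unadjusted p under 0.05 was reached by 2.23% of all genes with higher and 1.93% with lower KO values. Among 652 genes with an unadjusted p under 0.05 in fresh cells and a fold change other than 0 in both comparisons, 433 (66.4%) had the same sign in vehicle culture, where 54.2% of all 13698 such genes did. An unadjusted p under 0.05 in both was found for 50 of them with the same sign and 12 with the opposite sign. The genotype difference itself was tested between fresh and vehicle cells. No gene passed the adjusted threshold by edgeR, while 539 (3.57%) had an unadjusted p under 0.05, 219 higher (1.45%) and 320 lower (2.12%) in fresh, and DESeq2 called 101. Without fresh KO replicate 2 edgeR called 163 genes, without vehicle WT replicate 3 it called 11 and without fresh WT replicate 2 it called 1. Kif11 (unadjusted p = 0.0004), Shb (0.000508) and Top2a (0.00063) were among the genes with the smallest edgeR p values for that difference. In vehicle culture Shb and Top2a overlapped and Kif11 had the opposite sign. All 3 were named for small p values in fresh cells, Shb and Top2a also for separated genotypes there. The contrast uses the same fresh values, so their small p values for it are no independent evidence.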

How the data were processed

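The authors deposited one table of unnormalized read counts, with a row per gene symbol and a column per library. Column-purified total RNA entered a low-input SMART kit, which amplifies full-length cDNA, per the labels' protocols. STAR 2.7.5c, featureCounts, MultiQC 1.10, DESeq2 and the build mm10 are named in the submitters' processing notes. Gene models, strandedness and the counting of multi-mapped reads were not given in the sources used here, so counts of overlapping genes, antisense partners and near-identical copies are uncertain. Intervals and floors cover counting error only, since no molecular identifiers are described.

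Of 25239 genes, 15095 passed filterByExpr by group. An edgeR 4.0.16 quasi-likelihood model (R 4.3.3, robust estimation, trimmed mean of M values, 1 mean per group, common biological coefficient of variation 0.909) was fitted to 15 of the 16 libraries. A sparse library of PSGL-1 treated WT cells, in neither group compared, was left out because it had few detected genes. Fresh, vehicle and fresh-minus-vehicle genotype contrasts were adjusted by Benjamini-Hochberg over all genes tested. Members, lists, fit and rule for named genes were chosen with earlier results of these data known. The rule named Selp and Selplg, every changed gene, the 12 smallest unadjusted p in each direction among genes with no overlap, a regular symbol and a group mean of 5 CPM or more, and up to 3 members per list; genes with a defining role in a list were added as values. Values of some named genes are not reported here; these genes remain in the fits, counts and list medians. The fit was also run on simulated counts with the same spread in every group. Since the fresh KO libraries differed more from each other than the WT libraries did, that run cannot show how the fit behaves here. Alternatives were DESeq2 1.42.0, limma 3.58.1 voom, other scaling, filters, blocks and libraries left out. Coordinates and promoters are from RefSeq GRCm38.p6, the assembly also named mm10; 25147 symbols matched, 107 through a synonym. No pair of fresh replicates agreed within sampling noise, with chi-square over degrees of freedom from 72.5 to 203.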

Additional observations from a re-analysis of the deposited data

How the results depend on the processing

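The count of 3 changed genes in fresh cells became 1 with all 16 libraries in the fit, 128 with DESeq2, 7 with limma voom on 16 libraries, 9 with voom without the sparse library and 0 with voom on fresh libraries alone; both voom fits without the sparse library were chosen after seeing the data. It ranged from 2 to 288 with a fresh library left out. The vehicle count of 2 became 1 with 16 libraries, 1 with the vehicle libraries alone, 138 with DESeq2 and 5 with voom without the sparse library, and ranged from 2 to 21 with a library left out, 21 without WT vehicle replicate 3. The count of 0 for the difference between fresh and vehicle became 101 with DESeq2 and ranged from 0 to 163 with a library left out. Eno1b passed in 15 of 16 alternatives and Trim12a in 14. With a fresh library left out, the log2 fold change of Mmrn1 ranged from -0.034 (without KO fresh replicate 2) to 1.16, and that of Rpl13 from -0.11 (without KO fresh replicate 1) to 1.04. Same-numbered KO and WT fresh libraries deviated together at correlations of 0.0753 and 0.0333, so the numbers were not taken to pair them; a replicate block gave 4 changed genes in fresh cells with the numbers of the titles and 5 with library numbers in runs of 6. The cause of these differences was not tested. Depth limits detection to levels of about 0.171 to 0.238 CPM, the floor of 3 counts in the deepest and shallowest fresh library.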
